A study of Homo sapiens with 9 samples.

Results

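The 10 genes of the NF-kB subunits and IkB family proteins were examined in RIVA cells that expressed mutant BCL10. They were found in the deposited table by gene name, NFKB1, NFKB2, RELA, RELB, REL, NFKBIA, NFKBIB, NFKBIE, NFKBIZ and NFKBID, and make up 10 of its 60656 genes. The rule uses gene names only. All 10 passed the filter on low counts in every comparison, with 1693 to 42834 counts per library.

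NF-kB transcription factors are dimers of 5 subunits. RELA, RELB and REL carry a transactivation domain, whereas NFKB1 and NFKB2 are made as the precursors p105 and p100 and processed to p50 and p52. In resting cells, IkB proteins hold the dimers in the cytoplasm until the IkB kinase marks them for degradation. The BCL10 protein acts with MALT1 to activate this kinase downstream of the B-cell receptor. NFKBIA, which encodes IkB-alpha, is itself a well-known NF-kB target gene, which makes it the textbook example of negative feedback in this pathway. NFKBIZ and NFKBID encode the atypical nuclear proteins IkB-zeta and IkB-NS, which act on NF-kB at chromatin rather than in the cytoplasm.

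RIVA, a long-established human line, models diffuse large B-cell lymphoma of the activated B-cell-like subtype (ABC-DLBCL). It was transduced with the doxycycline-inducible lentiviral construct pLVX-TetOne with no insert (vector), with BCL10 S136X, a truncation, or with BCL10 R58Q, a missense mutant, and the labels list the vector cells as BCL10 wild type. All 3 groups received doxycycline for 24 h, at 200 ng/mL by the treatment protocol, although the sample characteristics list 200 ng/µL. RNA was sequenced from 3 replicates of each group, 9 libraries in all. A single cell line was used, no library without doxycycline and no construct of wild-type BCL10 was analysed here, and in bulk RNA a change in the number of expressing cells and a change in RNA per cell cannot be told apart.

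Total counts were 28047713 to 33122267 per library. BCL10 served as the check of the constructs: it had 885 to 1268 counts in the vector libraries, 9838 to 14293 with S136X and 10131, 10117 and 10596 with R58Q, and did not differ past the threshold between the mutants (log2 fold change R58Q over S136X -0.31, SE 0.116, adjusted p = 0.363). The 5 B-cell markers were abundant in every library (1392 to 38397 counts each), although their sum was 84340 to 94116 counts in vector, 67676 to 89809 with S136X and 65094 to 77211 with R58Q, lower in R58Q than in any vector library. T-cell and myeloid markers summed to 95 to 250 and 8 to 18 counts. The 2 fibroblast markers summed to 185 to 270 counts in vector, 384 to 502 with S136X and 372 to 592 with R58Q, but went opposite ways. COL1A1 was at 3.06 to 5.15 CPM in vector, 9.6 to 16.2 with S136X and 10.7 to 17.2 with R58Q, and COL1A2 at 2.29 to 4.96, 1.37 to 3.62 and 0.768 to 2.36. The part of these marker differences in the results below was not tested. By the dates in the column names, the R58Q libraries are later than those of vector and S136X, which share 1 date. In any comparison with R58Q, date and construct cannot be told apart.

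Promoter sequence was available for 8 of the 10 genes in RefSeq (GRCh38), as 16 windows of 300 bases that span 250 bases before and 50 after a transcription start. The NF-kB consensus was searched on both strands with overlapping matches counted separately. It was present in 7 of these 8 genes (10 of 16 windows), and in 13.3% of all 27305 genes with a window (11.3% of 35116 windows). NFKB2 had 5 matches in 2 of its 3 windows, and REL, whose RNA did not pass the test in any comparison below, had 2 matches. Both windows of RELA held none. The stretches below are shown because they lie before transcription starts of genes that moved together, with REL for contrast. Those of NFKB1, NFKB2, NFKBIB, NFKBID and REL precede starts inside the gene as bounded in the deposited data. Each is written 5′ to 3′ on the strand of its gene, either ends before the gene as bounded in the table or spans 30 bases around a match, and carries the matches in capitals. A match describes the letters only and is not evidence of binding. The first match in a stretch begins 81 bases before the start in NFKBIA, 49 in NFKB1, 223 in NFKBIZ, 107, 78, 176 and 21 in the 4 stretches of NFKB2, 28 in NFKBIB, 198 in NFKBID and 47 in REL. Genes other than NFKBIA and REL have more than 1 window, and the distance is to the start of the window that holds the match. Not shown are 1 further match each in NFKBIB (38 bases after the start), NFKBID (92 before another start) and NFKBIZ (239 before another start).
NFKBIA chr14:35404750-35404999 (minus strand): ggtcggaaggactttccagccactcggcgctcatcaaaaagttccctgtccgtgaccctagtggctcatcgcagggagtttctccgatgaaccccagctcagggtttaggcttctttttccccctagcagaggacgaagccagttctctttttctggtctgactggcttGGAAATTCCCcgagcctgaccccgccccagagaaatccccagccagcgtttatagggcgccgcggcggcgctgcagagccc
NFKB1 chr4:102501109-102501330 (plus strand): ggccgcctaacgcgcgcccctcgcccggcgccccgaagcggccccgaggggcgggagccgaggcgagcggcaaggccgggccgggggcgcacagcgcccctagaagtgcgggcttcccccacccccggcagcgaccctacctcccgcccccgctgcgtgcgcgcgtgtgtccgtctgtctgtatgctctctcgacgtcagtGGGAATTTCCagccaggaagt
NFKBIZ chr3:101827740-101827989 (plus strand): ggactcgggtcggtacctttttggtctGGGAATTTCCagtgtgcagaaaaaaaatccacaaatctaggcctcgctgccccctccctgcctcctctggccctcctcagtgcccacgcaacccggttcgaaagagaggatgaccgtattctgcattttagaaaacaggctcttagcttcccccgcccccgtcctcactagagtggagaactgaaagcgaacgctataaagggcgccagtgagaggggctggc
NFKB2 chr10:102394461-102394490 (plus strand): gaaacgtcatGGGAATTCCCCcctccgggg
NFKB2 chr10:102394490-102394519 (plus strand): gggccgagaaGGGGCTTTCCcggccctgag
NFKB2 chr10:102395519-102395548 (plus strand): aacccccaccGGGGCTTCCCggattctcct
NFKB2 chr10:102395674-102395703 (plus strand): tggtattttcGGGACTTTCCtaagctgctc
NFKBIB chr19:38899931-38899960 (plus strand): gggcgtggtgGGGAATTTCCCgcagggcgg
NFKBID chr19:35899922-35899951 (minus strand): gggctgagcaGGAATTCCCCttgcgcgggg
REL chr2:60881517-60881546 (plus strand): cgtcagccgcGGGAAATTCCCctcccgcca

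Of the 10 genes, 6 were called higher with BCL10 S136X and 8 with BCL10 R58Q, and 0 were called lower with either. Levels are given as CPM, the counts of a gene relative to the TMM-scaled total of its library, and calling a gene required an adjusted p below 0.05 in edgeR's quasi-likelihood test together with a change of 1.5-fold or more. With S136X the called genes were NFKB1, NFKB2, NFKBIA, NFKBIE, NFKBIZ and NFKBID, 6 of 10 beside 2.05% of all 15530 genes tested that were called higher and 1.82% called lower. With R58Q, RELB and NFKBIB were called in addition, 8 of 10 beside 4.09% called higher and 3.54% called lower among 15435 genes. Without the fold threshold, 8 of 10 passed with S136X (6.03% of all genes higher) and 8 of 10 with R58Q (12.3%). The lowest mutant library lay above the highest vector library for 9 genes with S136X (16% of all genes) and for 8 with R58Q (21.1%). The median log2 fold change of the 10 genes was 0.72 with S136X and 0.75 with R58Q, beside -0.02 and -0.028 over all genes tested. The count of 0 genes lower held at an unadjusted p under 0.05, with DESeq2 and with limma-voom. The 2 comparisons share the vector libraries.

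**Figure D1:**
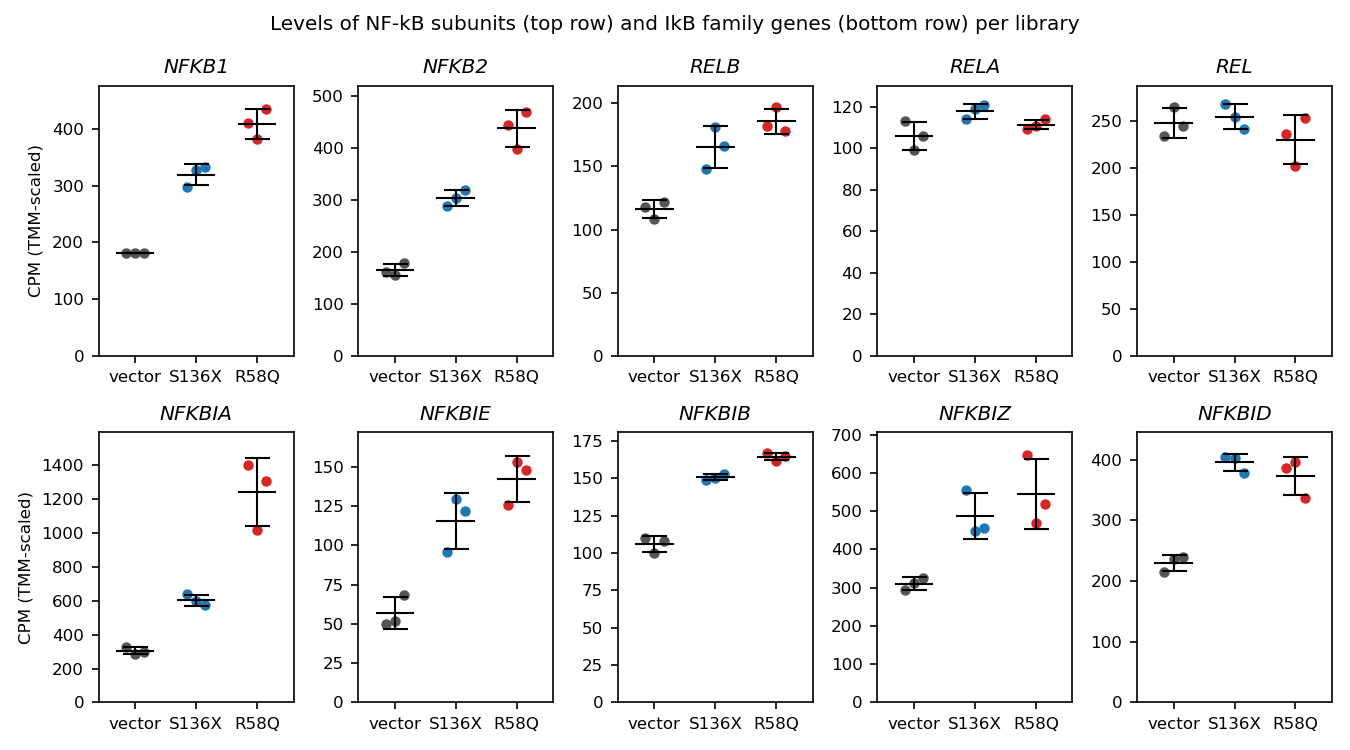
CPM (TMM-scaled, y axis from 0) of each of the 10 genes in the 9 libraries, with NF-kB subunits in the top row and IkB family genes in the bottom row. Points are libraries and bars are the mean and SD of 3. NFKBIA rises from 288 to 329 CPM in vector to 1016 to 1404 with R58Q, whereas RELA stays between 99.4 and 121 CPM in all libraries.

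The precursor genes NFKB1 and NFKB2 rose in both mutants. NFKB1 (p105/p50; chr4:102501331-102617302) had 182, 181 and 181 CPM in vector, 298, 328 and 332 with S136X and 410.5, 382 and 435 with R58Q. No library of 1 group overlapped another group, and the vector libraries differed by about 1 CPM. This was a log2 fold change of 0.82 with S136X (SE 0.0623, adjusted p = 0.000265) and 1.17 with R58Q (SE 0.0647, adjusted p = 4.56e-05), or 1.76-fold and 2.25-fold. NFKB2 (p100/p52; chr10:102394110-102402524), the precursor of the non-canonical pathway, had 161, 156 and 179 CPM in vector, 287, 303 and 318 with S136X and 444, 398 and 469 with R58Q. Its groups were again separate, with R58Q on top. On the log2 scale it rose by 0.87 with S136X (SE 0.0725, adjusted p = 0.000346) and 1.40 with R58Q (SE 0.0832, adjusted p = 4.75e-05).

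RELB, the partner of p52, rose less than the precursor genes. RELB (chr19:45001449-45038198) had 118, 108 and 122 CPM in vector, 148, 181 and 166 with S136X and 182, 197 and 178 with R58Q. All mutant libraries lay above all vector libraries, and the mutants overlapped each other. RELB differed from vector by 0.51 on the log2 scale with S136X (SE 0.0833, adjusted p = 0.00797), which passed the test at 1.42-fold but not the fold threshold, and 0.68 with R58Q (SE 0.0681, adjusted p = 0.000598). Without vector replicate 2, the adjusted p of RELB with S136X was 0.0524.

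RELA and REL, the subunits of the canonical dimers that carry a transactivation domain, did not pass the test in either mutant. RELA (p65; chr11:65653597-65663090) had 113, 99.4 and 106 CPM in vector, 114, 119 and 121 with S136X and 109.5, 111 and 114 with R58Q. The S136X libraries lay just above those of vector, and the R58Q libraries overlapped them. Its log2 fold change had a 95% confidence interval of 0.01 to 0.30 with S136X (adjusted p = 0.175) and of -0.07 to 0.21 with R58Q (adjusted p = 0.458). REL (c-Rel; chr2:60881521-60931612) had 234, 265 and 245 CPM in vector, 268, 255 and 242 with S136X and 236, 202 and 253 with R58Q, with overlap among all groups. Its log2 fold change was 0.04 with S136X (interval -0.12 to 0.20), which turned to -0.01 when libraries were scaled by total counts only, and -0.11 with R58Q (interval -0.31 to 0.10). For both genes, these intervals end below the 1.5-fold threshold in either direction.

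NFKBIA showed the largest change of the 10 genes with R58Q. NFKBIA (IkB-alpha; chr14:35401513-35404749) had 329, 288 and 297 CPM in vector, 638, 597 and 576 with S136X and 1404, 1016 and 1310.2 with R58Q. The 3 groups formed separate steps, and the R58Q libraries were the most spread, with replicate 2 lowest. The log2 fold change was 0.99 with S136X (SE 0.0735, adjusted p = 0.000236), or 1.98-fold, and 2.03 with R58Q (SE 0.123, adjusted p = 4.93e-05), or 4.08-fold.

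The classical inhibitor genes NFKBIE and NFKBIB also rose. NFKBIE (IkB-epsilon; chr6:44258166-44265788) had 50.2, 51.8 and 68.6 CPM in vector, 95.5, 129.6 and 122 with S136X and 126, 153 and 148 with R58Q. It had the lowest mean CPM of the 10 genes in vector and with S136X, and both mutants lay above vector. NFKBIE rose by 1.02 on the log2 scale with S136X (SE 0.143, adjusted p = 0.00424) and 1.32 with R58Q (SE 0.127, adjusted p = 0.00049). NFKBIB (IkB-beta; chr19:38899700-38908893) had 110, 99.8 and 108 CPM in vector, 149, 150.2 and 153 with S136X and 167, 162 and 165 with R58Q. Its groups did not overlap, and the mutant libraries were tightly grouped (SD 2.28 and 2.67 CPM). On the log2 scale, NFKBIB was higher by 0.51 with S136X (SE 0.0593, adjusted p = 0.00184), under the fold threshold, and 0.63 with R58Q (SE 0.0589, adjusted p = 0.000398). The call with R58Q sat close to that threshold and was lost, at 0.57, with upper-quartile or total-count scaling. SIRT2 shares 40 exon bases with NFKBIB on the opposite strand (1193 to 1431 counts for SIRT2), and with the strand setting of the counting not given, reads of the 2 genes there cannot be told apart.

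Both atypical IkB genes rose in both mutants. NFKBIZ (IkB-zeta; chr3:101827991-101861022) had 294, 312 and 326 CPM in vector, 556, 449 and 455 with S136X and 648, 470.1 and 519 with R58Q. Replicate 1 was the highest library in both mutants and the lowest in vector, and the mutants overlapped. NFKBIZ rose by 0.65 on the log2 scale with S136X (SE 0.0921, adjusted p = 0.0045) and 0.81 with R58Q (SE 0.114, adjusted p = 0.00268). Without S136X replicate 1, the value with S136X was 0.54, under the fold threshold, at an adjusted p of 0.00266. NFKBID (IkB-NS; chr19:35887653-35902303) had 215, 236 and 240.1 CPM in vector, 405, 403 and 379 with S136X and 386, 397 and 337 with R58Q. Unlike the other called genes, its mean was lower with R58Q (373 ± 31.7 CPM, SD, n = 3) than with S136X (396 ± 14.2), although these groups overlapped. The log2 fold change was 0.78 with S136X (SE 0.0658, adjusted p = 0.000366) and 0.69 with R58Q (SE 0.0793, adjusted p = 0.00111).

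**Figure D2:**
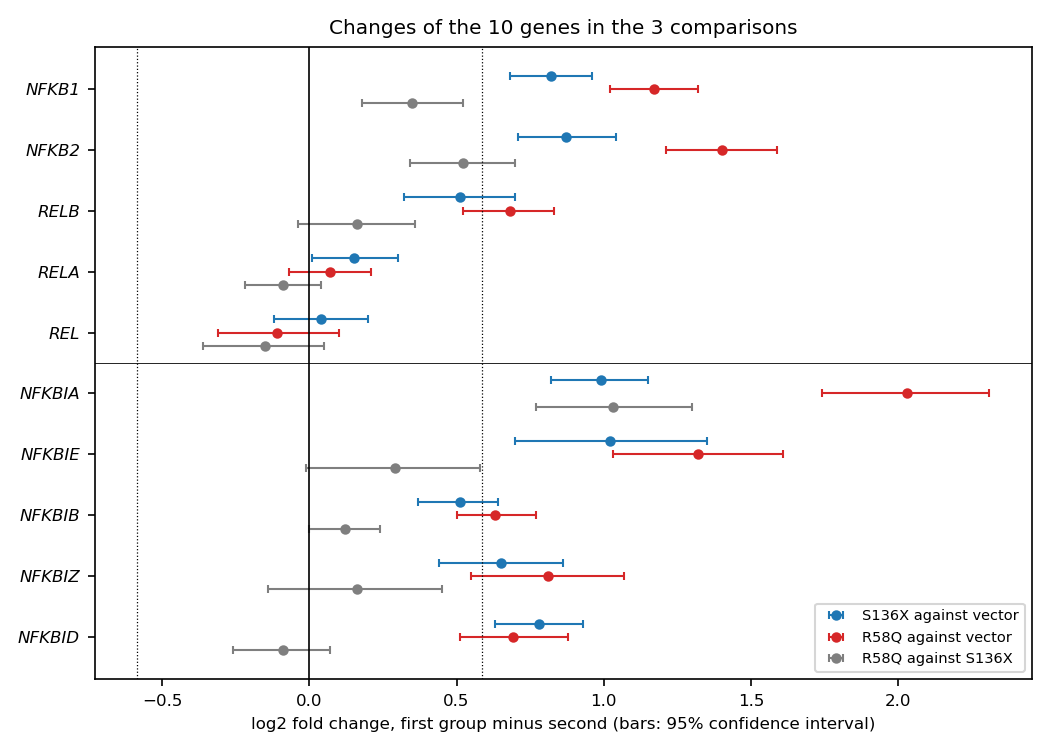
Log2 fold changes (x axis) of the 10 genes with their 95% confidence intervals, for S136X and R58Q against vector and for R58Q against S136X. Dotted lines mark 1.5-fold in each direction. Every interval of RELA and REL lies between these lines, and only the NFKBIA interval of R58Q against S136X, 0.77 to 1.30, lies wholly beyond them among the grey bars.

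Whether the 2 mutants differed was tested directly. NFKBIA was the 1 gene called, higher with R58Q by 1.03 on the log2 scale (SE 0.115, interval 0.77 to 1.30, adjusted p = 0.0138 by edgeR's quasi-likelihood test), beside 0.27% of 15195 genes called higher and 0.165% called lower. NFKB2 passed the test below the fold threshold, at 0.52 (SE 0.0782, adjusted p = 0.0406), so 2 of 10 genes passed without that threshold (0.349% of all genes higher). The groups did not overlap for 4 genes, NFKB1, NFKB2, NFKBIA and NFKBIB, all higher with R58Q (9.45% of all genes). NFKB1 was at 0.35 (adjusted p = 0.106), with an interval of 0.18 to 0.52.

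For the other genes the intervals give the size of difference allowed by a fit that does not pair the libraries by replicate number. RELB had 0.16 (interval -0.04 to 0.36), NFKBIB 0.12 (interval 0.00 to 0.24), NFKBIE 0.29 (interval -0.01 to 0.58) and NFKBIZ 0.16 (interval -0.14 to 0.45). NFKBID had -0.09 (interval -0.26 to 0.07), RELA -0.09 (interval -0.22 to 0.04) and REL -0.15 (interval -0.36 to 0.05). None of these 7 passed the test, and all 7 intervals end within 1.5-fold. The median of the 10 genes was 0.16, beside 0.003 over all genes tested.

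In fits that did not pair the libraries by replicate number, the calls between the mutants depended on single libraries. The adjusted p of NFKBIA was 0.0847 without R58Q replicate 3, 0.0726 without S136X replicate 2 and 0.14 without S136X replicate 3, while its log2 fold change stayed at 0.99, 1.03 and 1.01. With any 1 of these 3 libraries left out, 0 members passed, and NFKB2 was also lost without R58Q replicate 1 (adjusted p = 0.114) and without S136X replicate 1 (adjusted p = 0.123). Libraries with the same replicate number deviated together, and with the number as a block 6 of 10 genes passed without the fold threshold, beside 7.84% of all genes higher. These were NFKB1 (0.35, adjusted p = 2.74e-05), NFKB2 (0.52, adjusted p = 1.8e-07), RELB (0.16, adjusted p = 0.0199), NFKBIA (1.02, adjusted p = 7.84e-10), NFKBIE (0.29, adjusted p = 0.000134) and NFKBIZ (0.15, adjusted p = 0.0211). NFKBIA remained the 1 gene at or above 1.5-fold. No library was left out of the fit with the block.

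Levels of different genes were compared per length, as CPM per kb of merged exons. NFKBIA had the highest level in all groups, 128 ± 8.97 in vector (SD, n = 3), 254 ± 13.4 with S136X and 524 ± 85.4 with R58Q. NFKBID was second in vector (72 ± 4.16), followed by NFKBIZ (52.6 ± 2.72) and NFKBIB (45.6 ± 2.38), whose libraries did not overlap. RELB (38.2 ± 2.33) and NFKB2 (36.9 ± 2.68) overlapped, NFKB1 stood at 29 ± 0.107, and NFKBIE (22 ± 3.94), RELA (19.4 ± 1.24) and REL (18.8 ± 1.19) overlapped from one to the next at the bottom. With R58Q, NFKB2 moved from rank 6 to rank 3 at 97.4 ± 8 CPM per kb and overlapped NFKBIZ (92.5 ± 15.6). RELA (20.4 ± 0.429) and REL (17.5 ± 1.97) remained the lowest. REL has the longest exons of the 10 genes, 13170 bases, but 5702 of them are shared on the same strand with AC010733.1, which had 0 counts in every library, and how reads there were counted is not given in the sources used here. With shared exon bases left out of all lengths, an alternative chosen after the data were seen, REL stood at 33.2 CPM per kb in vector (rank 7, above NFKB1), 34.2 with S136X and 30.9 with R58Q (rank 9 in both), and RELA was lowest in all groups. With the length of the principal transcript instead, also chosen after the data were seen, NFKBIA and NFKBID remained first and second in every group. NFKB2 then moved only from rank 5 in vector to rank 4 with R58Q, and NFKBIB held rank 3 in every group. NFKBIE replaced REL as the lowest gene in vector, at 22 beside 22.1 CPM per kb.

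**Figure D3:**
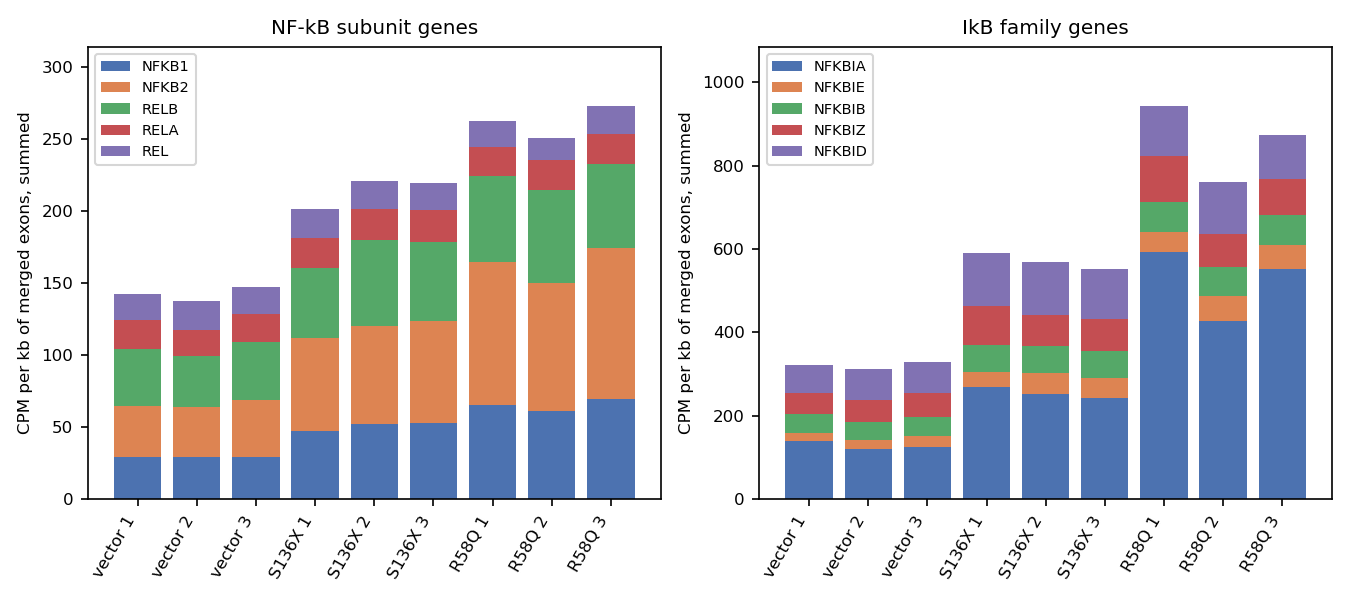
Summed CPM per kb of merged exons (y axis) in each of the 9 libraries, for the 5 subunit genes and for the 5 IkB family genes, with 1 colour per gene. The subunit sum is 138 to 147 in vector and 250.3 to 273 with R58Q, and the IkB sum is 311 to 329 in vector and 761 to 943 with R58Q.

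The make-up of both groups of transcripts shifted, as the stacked levels per library show. NFKB2 made up 25.9% ± 1.07 of the summed subunit level in vector, 31.6% ± 0.868 with S136X and 37.2% ± 1.5 with R58Q (SD, n = 3). The share of NFKB1 was 20.4%, 23.9% and 25% in the same order. The share of RELA, whose own level did not pass the test, went from 13.6% ± 0.766 to 10.1% ± 0.22 and 7.8% ± 0.275, and that of REL from 13.3% ± 1.19 to 9.09% ± 0.903 and 6.68% ± 0.477. Among the IkB genes, NFKBIA made up 40% ± 2.59 in vector, 44.6% ± 0.827 with S136X and 60.7% ± 3.86 with R58Q, while NFKBID stood at 22.5%, 21.7% and 13.7%. The summed level of the IkB genes divided by that of the subunit genes was 2.27, 2.26 and 2.23 in the vector libraries, 2.93, 2.58 and 2.52 with S136X and 3.59, 3.04 and 3.20 with R58Q. These ratios did not overlap between the groups, describe RNA only and were not tested. They leave out BCL3, which is not among the 10 genes, and include NFKBIA. A ratio without NFKBIA was not computed. From vector to R58Q, the share of NFKBIB in the IkB sum went from 14.2% to 8.31% and that of NFKBIZ from 16.4% to 10.7%. That of NFKBIE was 6.86% and 6.5%. Without the shared exon bases, REL made up 20.1% to 23.2% of the subunit level in vector, 13.9% to 16.6% with S136X and 10.3% to 11.8% with R58Q. The ratio with all 10 genes was then 2.06 to 2.09, 2.39 to 2.75 and 2.92 to 3.43.

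Among genes that act on NF-kB or IkB proteins, TNFAIP3 and TNIP2 rose in both mutants and BCL3 fell with R58Q, close to the fold threshold. Of 18 such regulators (CHUK, IKBKB, IKBKG, MAP3K14, BTRC, FBXW11, RNF123, NKIRAS1, NKIRAS2, BCL3, NFKBIL1, NKRF, NKAP, COMMD1, TNIP1, TNIP2, TNFAIP3 and CYLD), 2 were called higher with S136X, and 2 higher and 1 lower with R58Q. Over all genes tested, 2.05% were called higher with S136X, and 4.09% higher and 3.54% lower with R58Q. The median log2 fold change of the regulators was 0.12 in both, beside -0.02 and -0.028 over all genes tested. The kinase genes CHUK and IKBKB and the scaffold gene IKBKG, which form the IkB kinase complex, were not called in either mutant, although CHUK passed the test with R58Q below the fold threshold (0.32, adjusted p = 0.0125). TNFAIP3, which encodes the deubiquitinating enzyme A20, had 111, 124 and 138 CPM in vector, 247, 256 and 259 with S136X and 327, 283 and 353 with R58Q. Its groups were separate (log2 fold change 1.03, adjusted p = 0.000278, and 1.36, adjusted p = 0.000141). TNIP2, an A20-binding inhibitor, had 17.8, 21.1 and 19.3 CPM in vector, 26.2, 33.5 and 32.9 with S136X and 47.4, 47.0 and 54.1 with R58Q, also without overlap (0.67, adjusted p = 0.00921, and 1.35, adjusted p = 7.52e-05). BCL3, an atypical IkB protein that binds p50 and p52, went the other way, with 78.7, 71.9 and 67.0 CPM in vector, 63.8, 59.1 and 58.3 with S136X and 54.1, 45.9 and 42.9 with R58Q. It fell by 0.61 on the log2 scale with R58Q (SE 0.0981, adjusted p = 0.00482) and was at -0.26 with S136X (adjusted p = 0.0613). The value with R58Q was -0.58 without R58Q replicate 2, -0.54 without R58Q replicate 3 and -0.53 without vector replicate 1, under the fold threshold at adjusted p = 0.0163, 0.0204 and 0.0135.

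Between the mutants, 0 of the 18 regulators were called by edgeR, beside 0.27% of all genes called higher and 0.165% called lower. At an unadjusted p under 0.05, 3 were higher and 3 lower. DESeq2 called 1 and limma-voom 0. The shares of all genes under these last settings were not computed. The gene called by DESeq2 was TNIP2, at 0.67 (adjusted p = 0.0578 by edgeR's quasi-likelihood test). TNIP2 was also called with the replicate block (0.68, adjusted p = 3.05e-07), as were 2.94% of all genes. TNFAIP3 had 0.33 (adjusted p = 0.171) and BCL3 -0.35 (adjusted p = 0.16).

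Nearly all of the genes listed here as NF-kB targets rose in both mutants. The list held TNF, LTA, LTB, CCL3, CCL4, CCL22, CXCL10, ICAM1, CD40, CD80, CD83 and CCR7. It also held BCL2A1, BCL2L1, BIRC3, CFLAR, TRAF1, FAS, IRF1, IRF4, GADD45B, IER3, SOD2, EBI3 and PLEK. Of 25 genes, 23 were called higher with S136X and 24 with R58Q, beside 2.05% and 4.09% of all genes tested. By edgeR, DESeq2 or limma-voom, 0 were called lower, and 0 were lower at an unadjusted p under 0.05. The list was chosen with earlier results of these data known, so these counts describe the listed genes and are no independent test. The median log2 fold change was 1.04 with S136X and 1.70 with R58Q. The 4 with the largest mean change were CCL22, a chemokine (2.87 and 4.54 on the log2 scale), LTA, the cytokine lymphotoxin-alpha (2.61 and 4.30), EBI3, a cytokine subunit (2.85 and 3.99), and CD80, a costimulatory ligand (2.17 and 3.39). SOD2 was not called in either mutant and GADD45B not with S136X; both are named because they were the exceptions. Between the mutants, 9 of 25 were called, all higher with R58Q, beside 0.27% of all genes called higher. The median of the 25 was 0.69. In fits without the replicate block, the count called was 3 without R58Q replicate 3, 4 without S136X replicate 2 and 0 without S136X replicate 3. The share of all genes called in these fits was not computed. CCL22 had 17.0, 51.6 and 28.5 CPM in vector, 171, 279 and 257 with S136X and 706, 589 and 965 with R58Q, without overlap between groups.

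**Figure D4:**
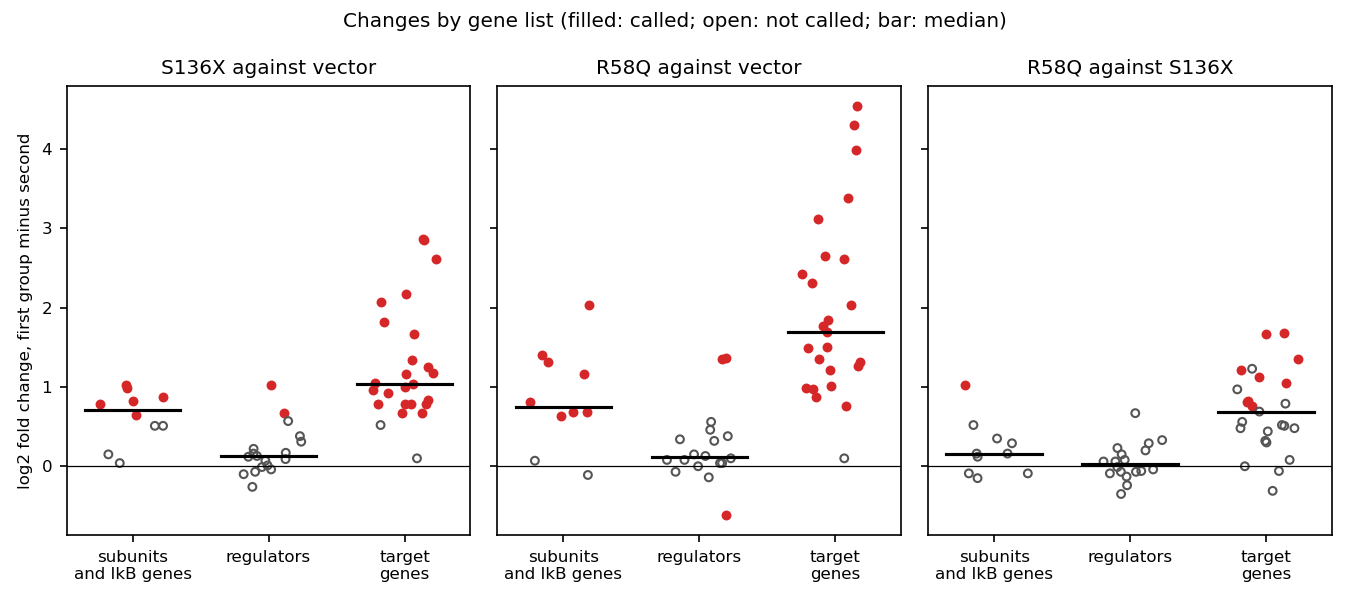
Log2 fold changes (y axis) of the 10 subunit and IkB genes, 18 regulators and 25 target genes in the 3 comparisons. Filled points were called, open points were not, and bars are medians. The medians with R58Q against vector are 0.75, 0.12 and 1.70.

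NFKBIA had the largest mean change over both mutants of the 10 genes, and the protein-coding genes with the most similar pattern were sought among 12253 over the 9 libraries. Likeness was the root mean square difference of log2 CPM (pseudocount 1 CPM), each gene centred on its own mean. The nearest were CD40, a TNF receptor family member of B cells (difference 0.151), TRIP10 (0.186) and STAT5A (0.187). CD40 had log2 fold changes of 0.96 with S136X and 1.77 with R58Q, beside 0.99 and 2.03 for NFKBIA. TRIP10 had 1.26 and 1.94, and STAT5A 0.91 and 1.81. CD40 is also on the list of target genes above.

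Beside REL and NFKBIB, overlapping annotations touch 3 more genes. NFKBID shares 111 exon bases with AD000864.1 on the same strand (15 to 38 counts per library), and RELA shares 9 with RELA-DT on the opposite strand (17 to 40 counts). NFKBIZ and NXPE3 overlap by 241 bases on the same strand but share 0 exon bases.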

How the data were processed

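Total RNA of 9 libraries was sequenced after poly(A) selection on an Illumina NovaSeq, with 2 runs combined per library. The authors deposited raw read counts per gene, and the 9 normalized columns beside them were not used. The submitters' processing notes name cutadapt, STAR, Picard and hg38. The counting program, its strand setting and the annotation release are not given in the sources used here. Columns headed S136 were taken as S136X. GENCODE 29 held 96.3% of the gene identifiers and gave exon lengths.

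The counts were fitted with edgeR 4.0.16 under R 4.3.3 (filterByExpr, minimum count 10 and total 15, TMM, quasi-likelihood F test, Benjamini-Hochberg adjustment over all genes tested). Each comparison used the 6 libraries of its 2 groups. Calls required an adjusted p below 0.05 and a change of 1.5-fold or more. Standard errors are the log2 fold change over the root of F. The procedure was tested on simulated data. Alternatives were DESeq2 1.42.0, limma-voom (limma 3.58.1), other scalings, filters and thresholds, all 9 libraries in one fit, a replicate block and each library left out.

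The members and gene lists were chosen with earlier results of these data known. Named genes were all members, BCL10, up to 4 called genes per list with the largest mean absolute log2 fold change over both mutants, and the 3 genes nearest to NFKBIA. The study calls its replicates biologic, but the labels do not say that they were separate cultures, so p-values measure the spread between these libraries. Between replicates, chi-square per degree of freedom was 7.21 to 23, above sampling noise. Deviations from group means correlated at 0.206 to 0.788 for the 9 pairs of libraries with the same number and at -0.602 to 0.217 for the 18 other pairs, so the numbers were taken to pair the libraries. The values reported are from fits without the block, and the blocked value is given where it changed a call or moved a count by over 1.5 times.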

Additional observations from a re-analysis of the deposited data

Results flagged for a closer look

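By the direct test of R58Q against S136X, levels differed for 2 members and for the 4 named target genes. Over all genes tested, 0.349% passed higher. The 4 target genes were named for their large change over both mutants in these same libraries. On the log2 scale, NFKBIA was higher with R58Q by 1.03 (adjusted p = 0.0138) and NFKB2 by 0.52 (adjusted p = 0.0406). LTA was higher by 1.68 (adjusted p = 0.00419), CCL22 by 1.67 (adjusted p = 0.028), CD80 by 1.22 (adjusted p = 0.0138) and EBI3 by 1.13 (adjusted p = 0.0138). Each gene was higher in 3 of 3 R58Q libraries than in any S136X library, as were 9.45% of all genes tested. With R58Q replicate 3, S136X replicate 2 or S136X replicate 3 left out, 0 members passed in the fits without the replicate block. BCL10 itself was not higher with R58Q (-0.31, adjusted p = 0.363). The R58Q libraries carry their own date in the column names, and date and construct cannot be told apart.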

How the results depend on the processing

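Across the 3 comparisons, the 30 log2 fold changes of the members were recomputed under 15 alternatives each. Of the 450 values, 443 kept their direction and their side of the threshold, 6 lost the call and 1, REL with S136X under total counts only (-0.01), changed sign. The lost calls were NFKBIZ with S136X without S136X replicate 1, NFKBIB with R58Q under 2 scalings and NFKBIA between the mutants without 1 of 3 libraries. With no fold threshold, 4 regulators passed with S136X, all higher (6.03% of all genes higher). With R58Q, 8 passed, 7 of them higher (12.3% of all genes higher). Between the mutants, 2 members passed (0.349% of all genes higher). At an adjusted p under 0.01, 0 members and 4 targets were called between the mutants. Leaving out 1 library gave 0 to 1 members and 0 to 8 targets there. The shares of all genes called at this threshold and in these fits were not computed. With the replicate block, 1 regulator, TNIP2, was called between the mutants, as with DESeq2, no filter and all 9 libraries in one fit (1 each). The block changed no call of a member, while calls over all genes went from 601 to 1014 with S136X, from 1178 to 1646 with R58Q and from 66 to 446 between the mutants. The causes were not tested.

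With 3 libraries per group, the intervals come from fits without the block, which do not use the pairing. Between the mutants and without the fold threshold, 6 of 10 members passed with the block and 2 without it. Over all genes, 7.84% and 0.349% passed higher. With principal transcript lengths, a choice made after the data were seen, the mean IkB to subunit ratio in vector was 2.45. Without shared exon bases it was 2.07. NFKBIA and NFKBID kept ranks 1 and 2 under both lengths.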
